A study of Arabidopsis thaliana with 8 samples.

Results

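AP1 (APETALA1, AT1G69120), CAL (CAULIFLOWER, AT1G26310) and FUL (FRUITFULL, AT5G60910) are MADS-box transcription factor genes of a single clade, and all 3 were among the 19853 genes listed for young Arabidopsis thaliana inflorescences. They were picked out of the table by gene identifier. AP1 promotes the identity of the floral meristem and later specifies sepals and petals, CAL is its close paralogue with an overlapping role in the floral meristem, and FUL promotes the switch to flowering, shares in meristem identity and later patterns the valves of the fruit. MADS-box proteins of this MIKC type bind DNA as dimers and larger complexes, in which SEPALLATA proteins are frequent partners. In the flower, AGAMOUS (AG) is known to repress AP1 in the inner whorls.

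RNA was sequenced from inflorescences carrying flowers of stage 8 and younger. The 4 genotypes were Ler, the wild-type strain Landsberg erecta, the single mutants ag-10 and fhy3-68, and the double mutant ag-10 fhy3-68. Each had 2 libraries, which the series calls biological replicates. The series deals with FHY3, a transposase-derived transcription factor of far-red light signalling, and the genotypes allow the effect of each mutation to be read with and without the other. The labels name the alleles without their lesions, and they do not state how many plants were pooled, the day of harvest or the strain in which the mutants arose. FHY3 and AG status are called intact or mutated below after the labelled genotype.

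The values are normalised reads per gene on a scale of 1000000 per library, from 12322061 to 16816619 recovered reads. FHY3 mRNA lay between 103.38 and 109.81 where the gene was labelled intact and between 70.48 and 93 where it was labelled mutated, without overlap, as 12.9% of all listed genes did in that direction. Its mean log2 difference of -0.31 (SE 0.09) missed the threshold (limma, adjusted p = 0.0558), and without the lesion the level does not check the genotype. AG was not analysed here. Markers of the labelled tissue were present, and the lowest sums in any library were 403.83 for 8 stamen and tapetum genes and 92.22 for 8 carpel genes. Of the 4 seed storage genes 0 were listed, and of 4 late flower genes only CWINV4 was. Mature pollen genes, however, were present, with 3 of 4 listed. Their sum ran from 3.45 in an ag-10 library to 94.8 in a double mutant library.

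FUL was the only clade member with a called change, and that change went with FHY3. The Ler libraries held 34.49 and 34.44 normalised reads of FUL, and the ag-10 libraries 30.68 and 33.47. The fhy3-68 libraries held 48.66 and 53.67, and those of the double mutant 50.77 and 50.75. All 4 libraries with FHY3 mutated lay above all 4 with FHY3 intact. Of all listed genes, 14.3% showed that same separation upwards. In bulk tissue, a change in the number of cells that express a gene and a change in RNA per cell cannot be told apart.

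**Figure D1:**
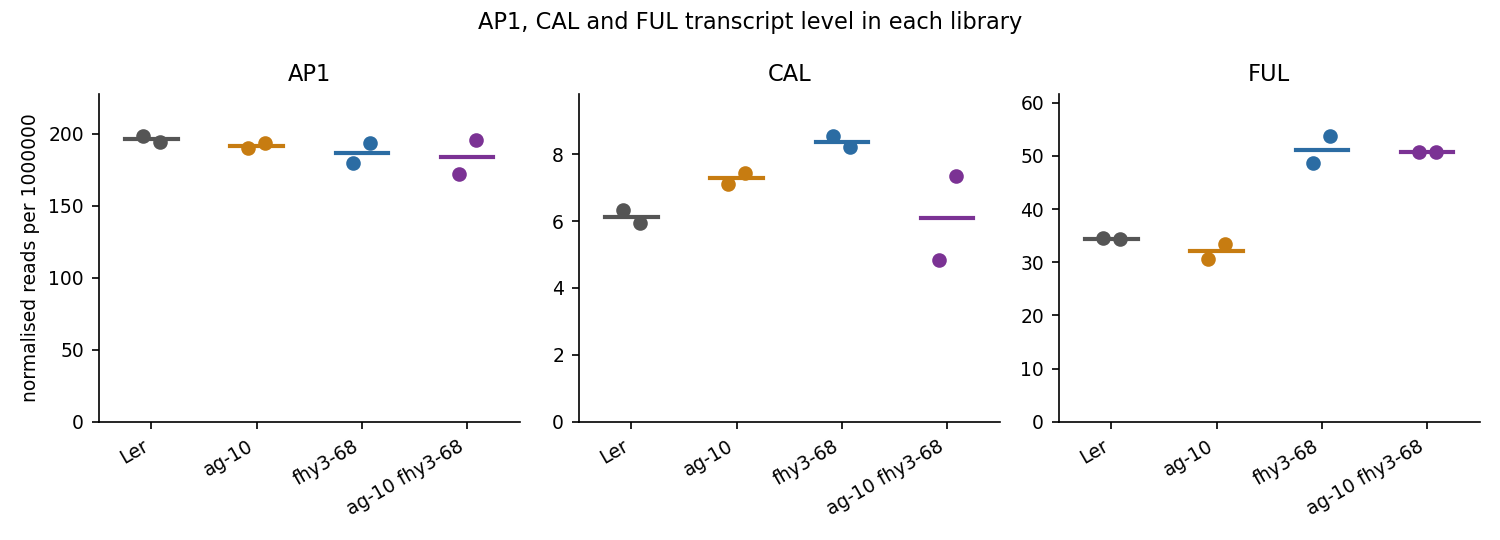
Normalised reads per 1000000 of AP1, CAL and FUL (vertical axes, each starting at 0) in the libraries of the 4 genotypes. Points are libraries and horizontal lines are genotype means; the FUL points of fhy3-68 and ag-10 fhy3-68 lie between 48.66 and 53.67, above those of Ler and ag-10, while the AP1 points of all genotypes lie between 171.81 and 198.18.

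From the highest down, the mean FUL level was 51.2 ± 3.54 in fhy3-68, 50.8 ± 0.0141 in the double mutant, 34.5 ± 0.0354 for Ler and 32.1 ± 1.97 for ag-10 (SD, n = 2 each). The first pair in that order overlapped. Both Ler libraries lay above both of ag-10, by an amount that was not called. Averaged over both AG states, the FHY3 mutation went with a 1.52-fold higher FUL level, with a 95% interval of 1.37 to 1.69. On the log2 scale this FHY3 effect was 0.61 (SE 0.06, limma with Benjamini-Hochberg adjusted p = 0.00383 over all listed genes, 4 libraries against 4). FUL rose in this contrast while AP1 and CAL did not pass the test, so 1 of 3 clade genes was called, beside 17.9% of all listed genes called in either direction and 10.6% called higher. A larger log2 increase than that of FUL was fitted for 8.81% of the listed genes. edgeR's quasi-likelihood test and DESeq2 on recovered reads called FUL as well, and its call held in 8 of 8 fits that left out 1 library, with adjusted p from limma between 0.0014 and 0.0274.

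Taken pair by pair, FUL rose in fhy3-68 against Ler by 0.56 on the log2 scale (SE 0.09, limma adjusted p = 0.0347). In ag-10 fhy3-68 against Ler the log2 difference was 0.55 (SE 0.09, limma adjusted p = 0.0321), and against ag-10 it was 0.66 (SE 0.09, limma adjusted p = 0.0325). In each of these comparisons 1 of 3 clade genes was called, beside 3.05%, 4.33% and 1.5% of all listed genes in either direction and 2.26%, 2.48% and 0.992% of them in the higher direction. These comparisons share libraries, so their values are not independent of each other. Their calls depended on the libraries in the fit, though the estimates moved less. In fits without 1 library, the log2 difference of FUL in fhy3-68 against Ler stayed between 0.49 and 0.63. That of the double mutant stayed at 0.55 against Ler and between 0.59 and 0.72 against ag-10. The number of genes called over the whole table also moved strongly in such fits, as given at the end, so lost calls are not particular to FUL. The call against Ler in fhy3-68 was lost without Ler replicate 1 (limma adjusted p = 0.206), Ler replicate 2 (0.226), fhy3-68 replicate 2 (0.0718) or either double mutant library (0.0547), and when those genotypes were fitted alone (0.0777). That of the double mutant against Ler was lost without Ler replicate 1 (0.227), Ler replicate 2 (0.192), double mutant replicate 1 (0.146) or replicate 2 (0.107). That of the double mutant against ag-10 was lost without any library other than those of fhy3-68, with limma adjusted p from 0.0793 to 0.2.

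The ag-10 mutation was not followed by a called change in any clade gene. FUL in ag-10 against Ler differed by -0.10 (SE 0.09), with a 95% interval from -0.32 to 0.11. Between the double mutant and fhy3-68 its difference was -0.01, with an interval from -0.22 to 0.20. The FHY3 effect on FUL differed between the AG backgrounds by 0.09 on the log2 scale (SE 0.13), with an interval from -0.21 to 0.39. For ag-10 against Ler, the double mutant against fhy3-68, the interaction and the mean AG effect, limma called 0 of 3 clade genes. At an unadjusted p under 0.05 limma gave 0, 0, 1 and 0 of them in that order, and edgeR and DESeq2 gave 0 adjusted and 0 unadjusted in each. In those contrasts 0.00504%, 0%, 0.00504% and 0.00504% of all listed genes were called.

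**Figure D2:**
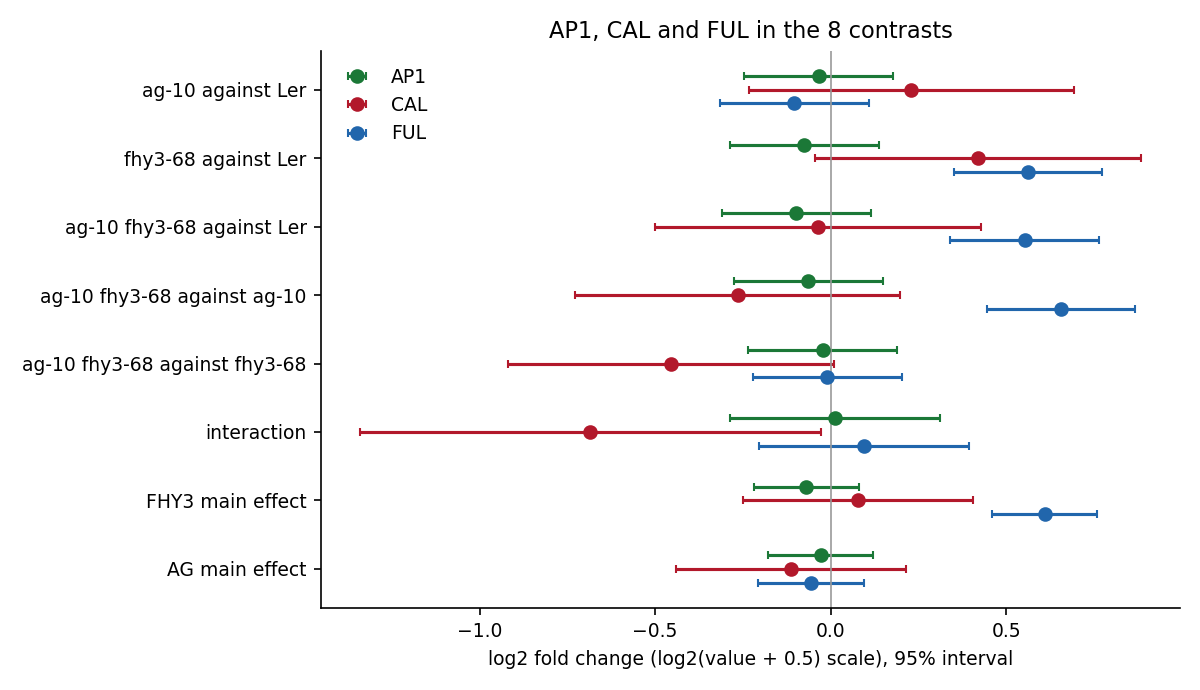
Log2 fold changes of AP1, CAL and FUL (horizontal axis, on the log2 of value plus 0.5) in the 8 contrasts, as fitted by limma on all 8 libraries. Points are estimates and bars are 95% intervals; the FUL estimates lie between 0.55 and 0.66 wherever FHY3 mutated is set against FHY3 intact, and the CAL bars are the widest.

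AP1, by contrast, was the most abundant clade gene and was not called in any of the 8 contrasts. Its level was 198.18 and 194.55 in the Ler libraries and 189.93 and 193.55 in those of ag-10. The fhy3-68 libraries gave 179.75 and 193.27, and the double mutant libraries 171.81 and 195.75. Both Ler libraries lay above those of ag-10 and fhy3-68, the double mutant overlapped every other genotype, and the lowest values were in replicate 1 of fhy3-68 and of the double mutant. The mean level went from 196 ± 2.57 in Ler through 192 ± 2.56 for ag-10 and 187 ± 9.56 for fhy3-68 to 184 ± 16.9 for the double mutant (SD, n = 2 each). The Ler and ag-10 libraries did not overlap, but that difference was not called, and the later neighbours overlapped. The FHY3 effect on AP1 was a fold of 0.953 with a 95% interval from 0.859 to 1.06 (limma adjusted p = 0.472), and the AG effect was a fold of 0.98 with an interval from 0.884 to 1.09. Over the 8 libraries, 93.2% of the genes with a mean of at least 5 had a larger SD of their log2 level than AP1, against 24.2% for CAL and 14.3% for FUL. AP1 was counted from 2452 to 3275 reads a library, so its counting error was also smaller than that of most genes.

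CAL was the least abundant of the 3 genes and the least certain, with 71 to 123 reads a library. The Ler libraries held 6.32 and 5.95 normalised reads of CAL, and the ag-10 libraries 7.12 and 7.43. In the fhy3-68 libraries it stood at 8.53 and 8.21, and in the double mutant libraries at 4.83 and 7.35. Both single mutants lay above Ler, and the double mutant libraries lay apart from each other. For double mutant replicate 1 the exact Poisson 95% interval was 3.77 to 6.09, and for replicate 2 it was 6.11 to 8.77, so these replicates differed by more than counting error.

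From the highest down, the mean CAL level was 8.37 ± 0.226 in fhy3-68, 7.28 ± 0.219 in ag-10, 6.14 ± 0.262 in Ler and 6.09 ± 1.78 in the double mutant (SD, n = 2 each). The libraries of fhy3-68 and ag-10 did not overlap, but these genotypes were not tested against each other. The later neighbours in that order did not differ by a called amount. CAL did not pass the test in any of the 8 contrasts. Against Ler, the log2 difference of fhy3-68 was 0.42 (SE 0.20, limma adjusted p = 0.244), that of ag-10 was 0.23 (SE 0.20) and that of the double mutant -0.04 (SE 0.20). The 95% interval of the fhy3-68 difference, from -0.04 to 0.88, holds the FUL estimate of 0.56 for the same comparison. A change in CAL of that size is thus not excluded. The interaction was -0.68 (SE 0.28) with a 95% interval from -1.34 to -0.03, and was not called after adjustment over all listed genes. Without double mutant replicate 1 it was -0.41, and without replicate 2 it was -0.96, neither of them called.

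Levels of different genes can be compared only per length. The exons of the RefSeq TAIR10.1 models cover 1743 bases for AP1, 1238 for CAL and 1303 for FUL, and the authors' gene models may differ from these. Per exon kilobase, AP1 stood at 113 normalised reads in Ler, FUL at 26.5 and CAL at 4.96, and the order was the same in every genotype. In fhy3-68 the values per exon kilobase were 107 for AP1, 39.3 for FUL and 6.76 for CAL. FUL made up 18.4% ± 0.199 of the summed per-kilobase level of the 3 genes in Ler and 17.5% ± 0.684 in ag-10. In fhy3-68 that share was 25.6% ± 0.432 and in the double mutant 26.2% ± 1.96 (SD, n = 2 each). AP1 held 78.2% in Ler and 78.3% in ag-10 against 69.9% in fhy3-68 and 70.6% in the double mutant, while CAL held between 3.27% and 4.43%. The summed level per kilobase was 153 ± 8.02 in fhy3-68, 149 ± 11.1 in the double mutant, 144 ± 1.71 in Ler and 140 ± 3.16 in ag-10.

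Whether FUL moved apart from its relatives was tested as a ratio within each library, which does not depend on the library's scale. For FUL to AP1 this ratio was 0.174 and 0.177 in the Ler libraries and 0.162 and 0.173 in those of ag-10. It was 0.271 and 0.278 in the fhy3-68 libraries and 0.296 and 0.259 in those of the double mutant. Every library with FHY3 mutated lay above every library with FHY3 intact. The mean log2 ratio was higher by 0.68 with FHY3 mutated, by 0.64 among the AG-intact libraries and by 0.72 among the ag-10 libraries. The two-sided exact permutation test gave p = 0.0286, the smallest that 4 libraries against 4 allow. Benjamini-Hochberg adjustment over the 6 ratio tests raised it to 0.0857. A ratio cannot reach the smallest p for FHY3 state and for AG state at once. No outcome of these 6 tests could therefore have brought an adjusted p under 0.05, and the adjusted values decide nothing.

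The log2 ratio of FUL to CAL, with 0.5 added to each value, was higher by 0.53 with FHY3 mutated (exact permutation p = 0.0286, adjusted 0.0857). On that scale fhy3-68 replicate 1, at 2.4447, lay barely above Ler replicate 2, at 2.4375. The plain ratios of these libraries were 5.70 and 5.79, so without the added 0.5 the FHY3 states overlapped. The FHY3 difference in the log2 ratio was 0.14 among AG-intact libraries and 0.92 in the ag-10 background, where CAL itself was lower in double mutant replicate 1. For CAL to AP1 the FHY3 difference was 0.15, with overlapping libraries (exact permutation p = 0.457, adjusted 0.9). By AG state, the differences were -0.03 for FUL to AP1, 0.06 for FUL to CAL and -0.08 for CAL to AP1, with exact permutation p of 0.771, 0.914 and 0.6.

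**Figure D3:**
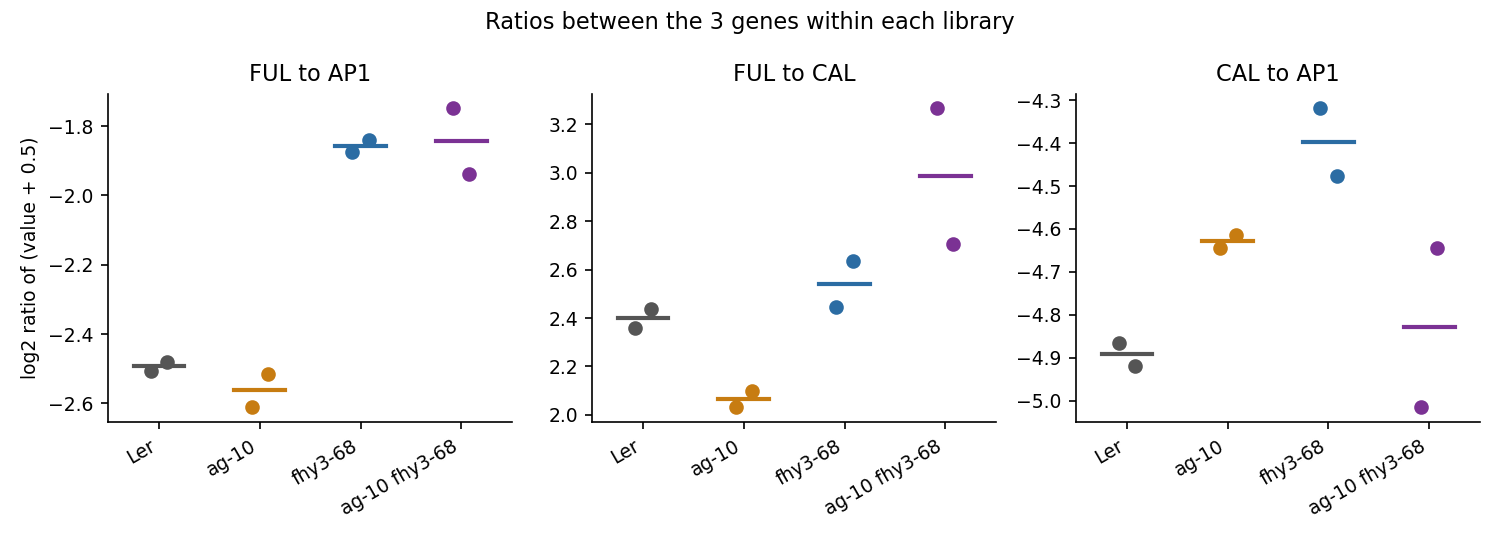
Log2 ratios between the 3 genes within each library (vertical axes, log2 of value plus 0.5; each panel has its own range, which does not start at 0). Points are libraries and lines genotype means; in the FUL to AP1 panel the FHY3-mutated libraries lie between -1.94 and -1.75 and the others between -2.61 and -2.48, and in the CAL to AP1 panel the FHY3 states overlap.

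AP1 and CAL are similar enough in sequence that some reads could be placed in either. Their RefSeq mRNAs were 75.04% identical over the aligned bases and shared a longest stretch of 56 bases. Of the 1508 windows of 50 bases in the AP1 mRNA, 7 also occurred in CAL and 0 in FUL. AP1 and FUL mRNAs were 64.88% identical, with a longest shared stretch of 29 bases. How shared reads were counted is not given in the sources used here, so the much lower CAL level is less certain than that of AP1 or FUL. No clade gene overlapped another gene model in TAIR10.1.

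Other MIKC-type MADS-box genes of the inflorescence changed with FHY3 in both directions. Of 36 relatives in the list, 25 were measured, and in the mean FHY3 effect 7 were called higher, 3 were called lower and 15 did not pass the test (limma, adjusted over all listed genes). Their median log2 difference was 0.10, against -0.01 over all listed genes, of which 10.6% were called higher and 7.34% lower. Over all listed genes these were 2095 higher and 1458 lower, but 1813 and 2211 with library totals as the scale. edgeR called 9 of the 25 and DESeq2 called 9. Every listed gene reached a value of 1 in 2 or more libraries. With FHY3 intact, AGL71 reached 1 only in Ler replicate 1 (1.06) and MAF4 only in Ler replicate 2 (1.59). Both are called higher here and were listed only through libraries with FHY3 mutated.

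The relatives that rose include genes of flowering time. SOC1, a MADS-box integrator of flowering signals that can pair with AP1 and FUL, lay between 58.68 and 77.82 normalised reads with FHY3 intact and between 85.09 and 91.81 with FHY3 mutated, a log2 difference of 0.41 (SE 0.11, limma adjusted p = 0.0381). AGL42, a SOC1 relative that promotes flowering, rose by 0.43 (SE 0.09, limma adjusted p = 0.0173), from between 26.47 and 33.47 to between 33.78 and 42.2. The libraries of both genes did not overlap between the FHY3 states, as was so for 14.3% of all listed genes in that direction. For AGL42 the gap was narrow, from 33.47 to 33.78. AGL71, a further SOC1 relative, rose by 1.02 from low levels of at most 1.06, reaching at most 2.38. Of the FLC-like floral repressors, MAF4 rose by 1.07 and MAF5 by 0.63. MAF4 was at 0.14 to 1.59 with FHY3 intact, from 31 reads in Ler and 8 in ag-10, and its difference ran from 0.79 to 1.67 in other fits of all libraries.

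The partners that build floral organs with AP1 were split. SEP3, a cofactor of AP1 and of the other organ identity proteins, rose by 0.23 (SE 0.05, limma adjusted p = 0.0276), from between 183.07 and 207.71 to between 217.98 and 242.86. SEP1 and SEP2, related cofactors, fell by 0.34 and 0.52. SEP2 went from between 220.6 and 276.65 to between 155.42 and 201.04 (SE 0.09, limma adjusted p = 0.0117). AP3, which specifies petals and stamens, fell by 0.41 and lay between 228.51 and 240.15 with FHY3 intact and between 142.7 and 202.55 with FHY3 mutated. SHP1, a gene of carpels and fruit valve margins that FUL is known to repress in the fruit, rose by 0.40 (SE 0.11, limma adjusted p = 0.0473), and its levels of 9.05 to 11.18 and 10.88 to 15.45 overlapped. SEP1 and SHP1 overlap another gene model in TAIR10.1, and whether strand was used in counting is not given in the sources used here.

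These calls depended on the libraries in the fit. Of the 25 relatives, 1 was called without Ler replicate 1, 0 without Ler replicate 2, 1 without ag-10 replicate 1 and 5 without ag-10 replicate 2. Without fhy3-68 replicate 1 or 2 it was 13 and 6, and without double mutant replicate 1 or 2 it was 4 and 2. In the same fits and order, the genes called over the whole table were 930, 929, 1392, 2176, 6370, 3223, 1819 and 1854, against 3553 with all libraries, so these counts move with the whole table. With recovered library totals as the scale, SOC1 (limma adjusted p = 0.0572) and SHP1 (0.0596) missed the threshold, and edgeR did not call AP3 nor DESeq2 AGL71 or SHP1. In the pairwise comparisons fewer passed. Limma called AGL42 and SEP3, both higher, in the double mutant against Ler (2 of 25, beside 4.33% of all listed genes), where edgeR called 1 and DESeq2 2. When ag-10 fhy3-68 was set against ag-10, and fhy3-68 against Ler, limma and edgeR called 0 of the 25 and DESeq2 2, with 9 at an unadjusted limma p under 0.05 in each.

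**Figure D4:**
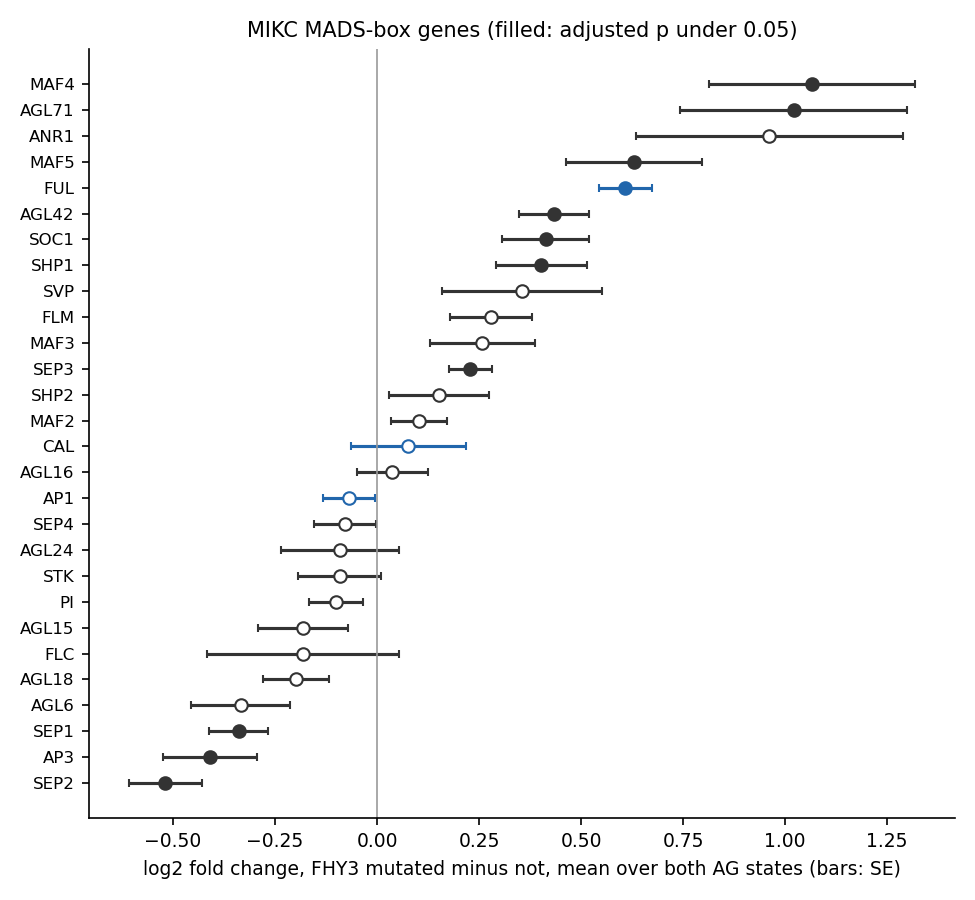
Mean FHY3 effect on the measured MIKC MADS-box genes (horizontal axis, log2 fold change with FHY3 mutated against intact), ordered by size. Points are limma estimates, bars are SE, filled points have an adjusted p under 0.05, and AP1, CAL and FUL are in blue; FUL at 0.61 lies among the genes that rose, and CAL at 0.08 and AP1 at -0.07 near 0.

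Regulators known to act upstream of the clade also moved in both directions. Of 21 listed regulators of AP1, CAL or FUL, 18 were measured, of which 3 were called higher and 5 lower with FHY3 mutated and 10 did not pass (limma, adjusted over all listed genes, 17.9% of which were called). Their median log2 difference was -0.16, against -0.01 over all listed genes. edgeR and DESeq2 each called 8. Every listed gene reached a value of 1 in 2 or more libraries. FT and TFL1, both called higher, reached 1 only with FHY3 mutated. These genes could enter the count only by being high there, so they do not inform its balance of directions.

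FD, a bZIP factor that works with FT to activate AP1 and FUL, fell by 0.54 (SE 0.12, limma adjusted p = 0.022), from between 7.86 and 11.49 to between 5.1 and 7.48. SPL15, an SBP-box factor known to activate FUL, fell by 0.57 (SE 0.10, limma adjusted p = 0.013), and lay between 28.72 and 35.9 with FHY3 intact and between 20.24 and 26.22 with FHY3 mutated. Of its relatives in flowering, SPL4 fell by 0.50 and SPL9 by 0.41. AP2, a floral organ identity gene that also restrains flowering, fell by 0.42 (SE 0.09, limma adjusted p = 0.0203).

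FT, the mobile flowering signal, rose by 1.43 (SE 0.38, limma adjusted p = 0.0433), but from very few reads. With FHY3 intact it stood between 0.38 and 0.64 normalised reads. The fhy3-68 libraries gave 6.71 and 1.44, and the double mutant libraries 1.43 and 1.67. TFL1, its antagonist that keeps shoots indeterminate, rose by 1.06 (SE 0.25, limma adjusted p = 0.0283), from 0.21 to 0.40 to between 0.72 and 1.94, and rested on 8 reads in Ler and 9 in ag-10. In other fits of all libraries the log2 difference of TFL1 ran from 0.75 to 1.96 and that of FT from 1.12 to 2.25. The coactivator BOP2, which promotes AP1 in the floral meristem, rose by 0.60 (SE 0.13, limma adjusted p = 0.0208), from between 15.33 and 22.52 to between 22.86 and 31.8. Its relative BOP1 went the other way, by -0.47 (SE 0.15, limma adjusted p = 0.073), and was not called. The largest fall in the list, that of UFO by 0.68 (SE 0.21, limma adjusted p = 0.0586), was not called either.

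LFY, the activator of AP1 and CAL in floral meristems, was looked at after its values were seen. It lay between 7.62 and 10.19 normalised reads with FHY3 intact and between 6.36 and 9.08 with FHY3 mutated, a log2 difference of -0.16 (SE 0.15, limma adjusted p = 0.468) with overlapping libraries. SPL4, SPL9, SPL15 and BOP2 overlap other gene models in TAIR10.1, and the reads of overlapping models may not have been told apart. Of the 18 regulators, 0 were called without Ler replicate 1 and 0 without Ler replicate 2, 2 and 3 without ag-10 replicate 1 and 2, 10 and 8 without fhy3-68 replicate 1 and 2, and 2 and 3 without double mutant replicate 1 and 2, in fits where the whole table moved as given above. With a pseudocount of 1, FT missed the threshold (limma adjusted p = 0.0552).

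The genes that AP1 or FUL are known to act on, or that act against them, were called in both directions. Of 28 listed genes 25 were measured, with 9 called higher, 5 lower and 11 not past the test in the mean FHY3 effect. Limma called 17.9% of all listed genes, 10.6% higher and 7.34% lower. Of all genes called, 59.0% were higher, but 45.1% with library totals as the scale, so the split among these 14 is near that of the whole table. The median log2 difference of the 25 was 0.15, against -0.01 over all listed genes. Of the 14 called genes, 9 also stand in the lists above, and the 5 others are TEM1, TEM2, LOG1, TOE1 and BRC1, all higher. Among the 9 is TFL1, which was listed only through libraries with FHY3 mutated. edgeR called 13 and DESeq2 12 of the 25.

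TEM2, a repressor of flowering that acts against FT and that AP1 is known to repress, stood between 0.56 and 2.07 with FHY3 intact. It reached 10.28 and 34.29 in the fhy3-68 libraries and 9.11 and 22.95 in those of the double mutant, a log2 difference of 3.41 (SE 0.44, limma adjusted p = 0.00579). Its relative TEM1 rose by 1.07 (SE 0.27, limma adjusted p = 0.0343), from at most 19.09 to between 19.57 and 45.17. Both genes were higher in replicate 2 than in replicate 1 of either FHY3 mutant genotype.

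BRC1, a TCP factor that holds back the growth of axillary buds, rose by 2.58 (SE 0.42, limma adjusted p = 0.01), from between 1.76 and 5.79 to between 10.77 and 37.31. LOG1, a cytokinin-activating enzyme whose gene AP1 represses, rose by 0.38 and lay between 21.72 and 27.77 with FHY3 intact and between 30.2 and 37.24 with FHY3 mutated. TOE1, an AP2-like repressor of flowering, rose by 0.40 (limma adjusted p = 0.045), but missed the threshold with library totals as the scale (0.0567) and with DESeq2 (0.166). Of the 25 genes, 3 and 2 were called without Ler replicate 1 and 2, 3 and 5 without ag-10 replicate 1 and 2, 13 and 10 without fhy3-68 replicate 1 and 2, and 5 and 7 without double mutant replicate 1 and 2, again in fits where the whole table moved. TEM2 and BRC1 were called in every one of those fits.

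**Figure D5:**
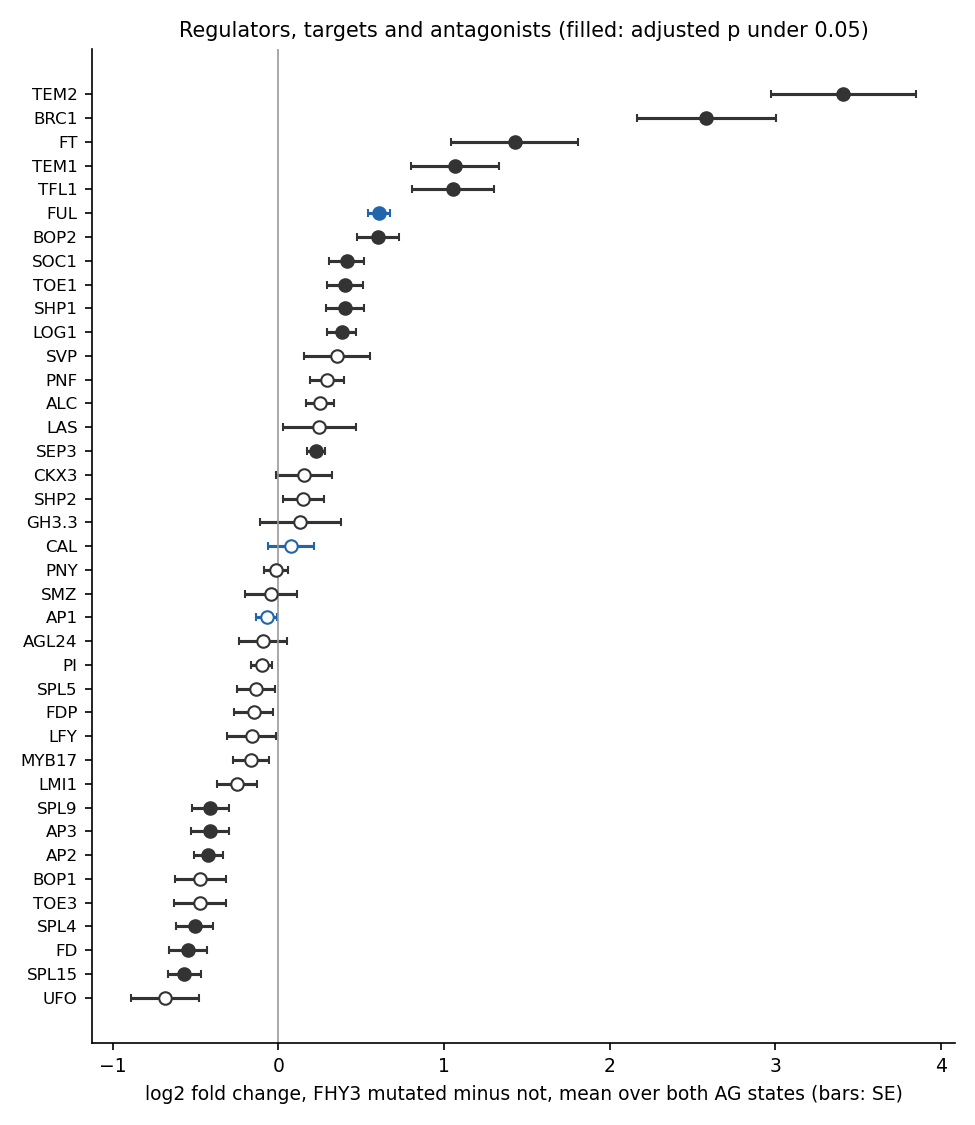
Mean FHY3 effect on the measured regulators, targets and antagonists of the clade (horizontal axis, log2 fold change with FHY3 mutated against intact). Points are limma estimates, bars are SE, filled points have an adjusted p under 0.05 and the clade is in blue; TEM2 at 3.41 and BRC1 at 2.58 lie highest, and the called genes SPL15, FD, SPL4, AP2, AP3 and SPL9 lie between -0.57 and -0.41.

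Several marker genes moved with FUL between the same libraries. The summed level of 5 rapid stress genes, such as TCH4 and WRKY40, which answer within minutes to touch or handling, lay between 48.3 and 135 in Ler and 29.6 and 131 in ag-10. In fhy3-68 it lay between 590 and 727, and in the double mutant between 305 and 615. Of these 5 genes 4 were called higher with FHY3 mutated, beside 10.6% of all listed genes. They were TCH4 (3.33), WRKY40 (3.85), ZAT10 (3.18) and CML38 (2.49). The summed level of 5 green leaf genes lay between 12477 and 14185 with FHY3 intact and between 15520 and 17219 with FHY3 mutated, and LHCB1.3, a light-harvesting protein gene, was the only one called (0.71). WRKY40 and LHCB1.3 overlap other gene models in TAIR10.1.

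Genes of the stamen went the other way. The sum of 8 stamen and tapetum genes was 711 to 762 for Ler, 605 to 662 for ag-10, 528 to 538 for fhy3-68 and 404 to 484 for the double mutant, with 4 of the 8 called lower with FHY3 mutated, beside 7.34% of all listed genes, and 0 higher. The 4 were SPL (SPOROCYTELESS, -0.54), TDF1 (-0.50), the pollen wall enzyme gene CYP703A2 (-0.81) and AT5G07230 (-0.58). Among 8 carpel genes, SPT fell by 0.68 and SHP1 rose, and the sum was 121 to 127 in Ler. It was 112 to 117 for ag-10 and 110 to 115 for fhy3-68, which overlap, and 92.2 to 96.7 for the double mutant. Of the 3 measured genes listed for sepals and petals, AP3, which also specifies stamens, was the only one called. Their sum was 519 to 539 with FHY3 intact and 400 to 492 with FHY3 mutated. Since it holds AP3, this sum does not stand for sepals and petals alone.

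Of 4 mature pollen genes 3 were listed, and their sum lay between 3.45 and 25.3 with FHY3 intact and between 17.3 and 94.8 with FHY3 mutated. Limma called 0 of the 3, with 2 at an unadjusted p under 0.05, and edgeR and DESeq2 each called 0. VGD1, the most abundant of them, differed by 2.08 (SE 0.72), PPME1 by 0.83 and AGL104 by 0.79. CWINV4 differed by 0.18. The part of any of these markers in the level of FUL was not tested.

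Genes with the profile most like each clade gene were taken by Pearson's r of the log2 level over the 8 libraries, among the 16060 genes with a mean of at least 5. These are descriptions of 8 points that share genotype and library. FUL had 932 genes with r over 0.9, of which the nearest were PP2A-4, a protein phosphatase catalytic subunit, PSY1, AT2G39805, APP1 and the homeobox gene HB40, all with r of 0.99. The HB40 level was 12.8 ± 7.85 in fhy3-68 and 13.4 ± 4.54 in the double mutant, but 0.67 ± 0.156 for Ler and 0.445 ± 0.134 for ag-10 (SD, n = 2 each). HB40 met the mean of at least 5 only through the libraries with FHY3 mutated, so its likeness to FUL is partly set by that filter. AP1 had 61 such genes, led by AT1G69520 and AT5G44540 (0.98), the aquaporin gene SIP1;2 (0.97), REM22 (0.97) and AT5G51380 (0.96). CAL had 9, led by the immune receptor gene EFR (0.96), MSBP1 (0.92), GS1 (0.92), AT1G79660 (0.91) and ARD3 (0.91). EFR had the same order of genotype means as CAL, from 19.5 ± 0.262 in fhy3-68 and 15.1 ± 0.672 in ag-10 down to 13.3 ± 1.1 in Ler and 12.6 ± 4.12 in the double mutant.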

How the data were processed

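The deposited table gives a normalised signal per gene and library, which the values show to be read counts divided by a library size factor: 100% of them lay within 0.1 of a whole read. Per the submitters' processing notes, the tools were edgeR 3.10.0, HTSeq 0.6.1p1, TopHat2 2.0.14 and CASAVA 1.8, with no role stated; genome build, annotation and strand use were not stated. Every listed gene reached a value of 1 in 2 or more libraries. Column totals lay between 974822 and 1037312.

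Limma 3.58.1 (R 4.3.3, intensity trend) was fitted to log2(value + 0.5) over all 8 libraries with a coefficient per genotype, 4 residual and 3.41 prior degrees of freedom, and two-sided Benjamini-Hochberg adjustment over 19853 genes; a call is an adjusted p under 0.05. This scale understates changes of low genes. The FHY3 and AG effects are means over both states of the other gene. edgeR 4.0.16 and DESeq2 1.42.0 were run on the recovered reads. Only the limma fit of the FHY3 effect was checked on simulated counts. These were drawn independently for each gene, so the check does not cover variation that genes share. Poisson intervals cover counting error only, since PCR reads without molecular identifiers are not independent molecules. Replicates of a genotype differed beyond counting noise (chi-square per degree of freedom from 4.68 to 27.5); beyond the word biological, nothing says how they were separated.

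Gene names came from RefSeq TAIR10.1, which matched 19811 identifiers (99.79%). Members and gene lists were chosen with earlier results of these data known. In each list every gene that limma called in the mean FHY3 effect is named, or up to 4 of largest change where 0 were called, and the 5 nearest profiles per clade gene.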

Additional observations from a re-analysis of the deposited data

Results flagged for a closer look

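The estimated effect of ag-10 on CAL had opposite signs in the FHY3 backgrounds, and it was called in neither. Both ag-10 libraries, at 7.12 and 7.43 normalised reads, lay above both Ler libraries, at 6.32 and 5.95, while both double mutant libraries, at 4.83 and 7.35, lay below both fhy3-68 libraries, at 8.53 and 8.21. The difference itself was tested as the interaction, a log2 difference of -0.68 (SE 0.28) with a 95% interval from -1.34 to -0.03. After adjustment over all listed genes, limma, edgeR and DESeq2 did not call the interaction. At an unadjusted p under 0.05 it passed with limma, as 241 of 19853 listed genes did, but not with edgeR or DESeq2. How many other genes separate in the same way was not counted. CAL was counted from 71 reads in double mutant replicate 1 and from 123 in replicate 2.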

How the results depend on the processing

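FUL kept its direction and its call in the mean FHY3 effect under every alternative run, with log2 differences from 0.56 to 0.64. In fhy3-68 against Ler it was 0.56 with an adjusted p = 0.0777 when limma held those genotypes only. Leaving out 1 library gave 0.49 to 0.63 there, 0.55 to 0.55 (0.5509 to 0.553) for the double mutant against Ler and 0.59 to 0.72 against ag-10. Of differences that were not called, CAL in the double mutant against Ler turned to 0.0002 with DESeq2, and with library totals as the scale AP1 and FUL in the double mutant against fhy3-68 turned to 0.0068 and 0.0202 and MSBP1 in the FHY3 effect to -0.0418. Leaving out 1 library spanned 0 for CAL in the double mutant against Ler (-0.32 to 0.24) and against ag-10 (-0.54 to 0.0141), and for AP1 against ag-10 (-0.16 to 0.0298). For the double mutant against fhy3-68 it did so for AP1 (-0.12 to 0.0705) and FUL (-0.0797 to 0.0603). It also did so for the AP1 interaction (-0.0829 to 0.10), the AG effect on AP1 (-0.0757 to 0.0181) and CAL (-0.25 to 0.0265), and the FHY3 effect on CAL (-0.0626 to 0.22), EFR (-0.0456 to 0.28), MSBP1 (-0.0265 to 0.0312), GS1 (-0.0024 to 0.0907) and ARD3 (-0.44 to 0.22). By AG state the ratios spanned -0.18 to 0.11 (FUL to AP1), -0.19 to 0.22 (FUL to CAL) and -0.18 to 0.0241 (CAL to AP1). The cause was not tested.

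The number of genes called moved more. It was 605 for fhy3-68 against Ler (345 to 1849 in other fits, 1 to 3399 without 1 library), 859 for the double mutant against Ler (755 to 2917, 2 to 2802), 298 for it against ag-10 (207 to 1068, 1 to 1820) and 3553 for the FHY3 effect (3245 to 4925, 929 to 6370). It was 1 for ag-10 against Ler (1 to 23, 1 to 4), 1 for the AG effect (1 to 32, 1 to 3), 1 for the interaction (1 to 3, 1 to 3) and 0 for the double mutant against fhy3-68 (0 to 1, 0). With library totals, 1813 genes were higher and 2211 lower in the FHY3 effect, against 2095 and 1458. In fhy3-68 against Ler these were 376 and 298 against 449 and 156, in the double mutant against Ler 423 and 467 against 492 and 367, and against ag-10 135 and 117 against 197 and 101. Same-numbered libraries of the mutants deviated together (correlations of 0.174, 0.277 and 0.453) but those of Ler did not deviate with them (-0.108 to 0.071), so the numbers were not taken to pair the samples. With the replicate number as a block, the counts were 1849, 1959, 927 and 4925 in the first 4 of these, and FUL kept 0.56, 0.55, 0.66 and 0.61, changing no call of the clade. With the Ler numbers crossed, chosen after seeing the data, they were 1313, 1488, 700 and 4164. A genotype left with 1 library is assumed to vary like the others. Of the 23 called regulators, relatives and targets, 23 kept their direction in every other fit and 2 kept their call in every fit without 1 library. CAL is limited by 71 to 123 reads a library.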
